A study of Mus musculus with 16 samples.

Results

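The 10 genes described here are linked to young neurons or to the growth cone, the motile tip of a growing neurite. Not all of them are restricted to immature neurons. They were taken by name from the count table, which holds 53801 gene identifiers, and are the doublecortin family (Dcx, Dclk1 and Dclk2), the SoxC transcription factors Sox4 and Sox11, the related membrane proteins Gap43, Basp1, Marcks and Marcksl1, and Igfbpl1. In the libraries labelled Trrap-FBΔ, 7 of the 10 were lower than in controls in the cortex, where 17.6% of all genes tested were lower, and 7 in the striatum, where 15.8% were. The members were chosen with earlier results of these data known, so these counts are a description and not a test of the set. The striatal count was 4 with sex as a covariate and 3 without the Trrap-FBΔ striatum of mouse 59. Gap43 fell most in the cortex, by 48.6%, and Dcx most in the striatum, by 41.2%. The members did not all move together. Dclk1 was lower in the striatum and passed no test in the cortex, Sox4 was lower in the cortex and passed no test in the striatum, Sox11 passed the test in neither tissue, and Igfbpl1 was higher in the cortex. A direct test for a genotype effect that differed between the tissues called 0 of the 10, so no such difference was shown. The striatal call of Dclk1 was lost with sex as a covariate, and the cortical call of Igfbpl1 with all 16 libraries in one fit.

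Young neurons assemble a dense, dynamic microtubule array while they migrate and send out an axon. Doublecortin binds and stabilizes these microtubules, and it is the most widely used marker of immature neurons. GAP43, BASP1 and the MARCKS proteins sit under the plasma membrane of the growth cone, where they bind acidic lipids and influence the actin cortex, and GAP43 and the MARCKS proteins are targets of protein kinase C and of calmodulin. SOX4 and SOX11 are transcription factors that act in newly formed neurons. In the mouse cortex several of these genes, Dcx among them, are most active around birth and decline as neurons mature.

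RNA was collected from 10-day-old mice of the strain C57BL6/J-129sv. Control mice had the genotype Trrap Fl/+; Camk2-Cre tg and Trrap-FBΔ mice the genotype Trrap Fl/Fl; Camk2-Cre tg, so that the Cre transgene and at least 1 floxed Trrap allele were shared by all animals and no mouse without Cre was analysed here. There were 4 cortices and 4 striata of each genotype, 16 libraries in all. By the mouse numbers in the sample titles, each of the 4 Trrap-FBΔ mice (mice 57, 59, 60 and 61) gave both tissues. So did control mice 58, 63 and 64, whereas control mouse 55 gave only a cortex and control mouse 65 only a striatum. Females made up 2 of the 4 control cortices, 1 of the 4 control striata and 3 of the 4 libraries in each Trrap-FBΔ group. Trrap is a large scaffold protein of histone acetyltransferase complexes. The Camk2 promoter directs Cre to glutamatergic neurons of the forebrain, while a piece of cortex or striatum also holds interneurons, glia, vessels and the striatum's own inhibitory projection neurons. In such bulk tissue, fewer cells of one type and less RNA in each of them cannot be told apart.

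Between 28743866 and 48761429 reads were assigned to genes in each library. Trrap itself lay between 136 and 173 CPM (counts scaled to the same effective library size) in control cortices and between 121 and 146 in Trrap-FBΔ cortices, and the groups overlapped in both tissues (cortex log2 fold change -0.18, edgeR adjusted p = 0.083, and striatum -0.04, edgeR adjusted p = 0.52). The cortical difference was called without the control cortex of mouse 63 (-0.23, edgeR adjusted p = 0.034), in a joint fit of all 16 libraries (0.047) and when low counts were not filtered (0.046). Counts over the whole gene thus did not clearly separate the genotypes, and group names below follow the labels. The 8 markers of cortical excitatory neurons were all lower in the striatum than in the cortex of both genotypes. The markers of striatal projection neurons separated the tissues less well. Only 2 of 9 were higher in control striatum, and in the striatum of control mouse 58 they summed to 227 CPM, below every cortex.

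RefSeq places the starts of 7 of the 10 genes in the promoter table used here, on build GRCm38.p6. Gap43, Marcks and Igfbpl1 had no entry. The sequences upstream of 4 start sites are printed because the genes behaved differently in these libraries. Dcx was lower in both tissues, its paralogue Dclk1 in 1 of them, Basp1 had the highest level per kilobase in the control cortex, and Sox11 passed no test of genotype. Each runs 5′ to 3′ on the strand of the gene up to the first annotated transcribed base, in lower case with any GC box (GGGCGG, or CCGCCC on the other strand), the motif bound by Sp1-like factors, in capitals. They are chrX:143933312-143933469 for Dcx (minus strand), chr3:55242114-55242363 for Dclk1 (plus strand, the first of 2 starts), chr15:25413765-25414014 for Basp1 (minus strand) and chr12:27342719-27342968 for Sox11 (minus strand).
Dcx: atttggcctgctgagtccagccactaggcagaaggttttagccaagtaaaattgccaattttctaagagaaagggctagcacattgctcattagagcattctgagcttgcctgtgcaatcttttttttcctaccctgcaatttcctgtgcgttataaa
Dclk1: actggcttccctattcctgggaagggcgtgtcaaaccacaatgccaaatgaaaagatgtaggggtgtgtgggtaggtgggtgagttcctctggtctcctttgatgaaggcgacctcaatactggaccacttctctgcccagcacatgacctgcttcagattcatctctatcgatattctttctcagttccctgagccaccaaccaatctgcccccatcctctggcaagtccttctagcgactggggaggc
Basp1: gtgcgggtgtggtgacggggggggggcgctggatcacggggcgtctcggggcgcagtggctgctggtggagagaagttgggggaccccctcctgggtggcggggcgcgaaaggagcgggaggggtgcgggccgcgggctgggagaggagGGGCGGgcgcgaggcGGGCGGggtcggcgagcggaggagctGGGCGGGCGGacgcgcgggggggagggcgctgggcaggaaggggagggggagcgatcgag
Sox11: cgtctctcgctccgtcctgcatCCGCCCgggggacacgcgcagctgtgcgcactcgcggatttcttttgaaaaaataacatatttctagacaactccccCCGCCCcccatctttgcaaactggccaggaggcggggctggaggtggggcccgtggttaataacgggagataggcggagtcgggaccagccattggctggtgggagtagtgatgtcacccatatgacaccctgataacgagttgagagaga

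The 250 bases before the Basp1 start held 4 GC boxes, overlapping matches counted separately, and had a GC content of 78.8%. Those of Sox11 and Dclk2 held 2 each, and those of Dcx, Dclk1, Sox4 and Marcksl1 held 0. Over all 32851 RefSeq starts in the table, 32.7% of windows of this length held at least 1 GC box. A CCAAT box (CCAAT, or ATTGG on the other strand) was found 4 times before Sox4 and once each before Dclk1, Sox11, Marcksl1 and the first Dcx start, against 33.8% of all windows with at least 1. The letters of a TATA box (TATAAA, or TTTATA on the other strand) stood before both Dcx starts, where they end the Dcx sequence printed above, and in 12.4% of all windows. Of the 4 genes with a promoter entry that were lower in both tissues, Basp1 held 4 GC boxes, Dclk2 held 2, and Dcx and Marcksl1 held 0. These matches describe letters and were not tested as binding sites.

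Per kilobase of exon (RPKM), the members spanned a range from Basp1 to Igfbpl1. In the control cortex Basp1 stood at 564 ± 43.0 RPKM and Gap43 at 490 ± 50.1 (SD, n = 4), with overlapping ranges. Marcksl1 followed at 245 ± 10.9 RPKM. Marcks at 109 ± 7.34 and Dclk1 at 102 ± 5.09 overlapped, as did Dcx at 27.3 ± 5.13 and Sox4 at 22.2 ± 1.49. Dclk2 (14.8 ± 0.423), Sox11 (8.94 ± 0.795) and Igfbpl1 (3.16 ± 0.789) closed the order, each separated from its neighbours in all 4 libraries. In the Trrap-FBΔ cortex the order was the same except that Dclk1 (101 ± 4.23 RPKM) lay above Marcks (72.6 ± 4.00), and the ranges of Basp1 (473 ± 29.2) and Gap43 (252 ± 22.0) had separated. In the control striatum Gap43 (430 ± 11.1 RPKM) lay above Basp1 (380 ± 24.3), and in the Trrap-FBΔ striatum Basp1 (334 ± 9.13) lay above Gap43 (259 ± 12.5), in each case without overlap. Sox4, Dclk2 and Dcx overlapped in the control striatum, at 17.4 ± 1.996, 15.7 ± 0.840 and 14.8 ± 2.61 RPKM, and were fully separated in the Trrap-FBΔ striatum, where Dcx was at 8.69 ± 0.224.

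**Figure D1:**
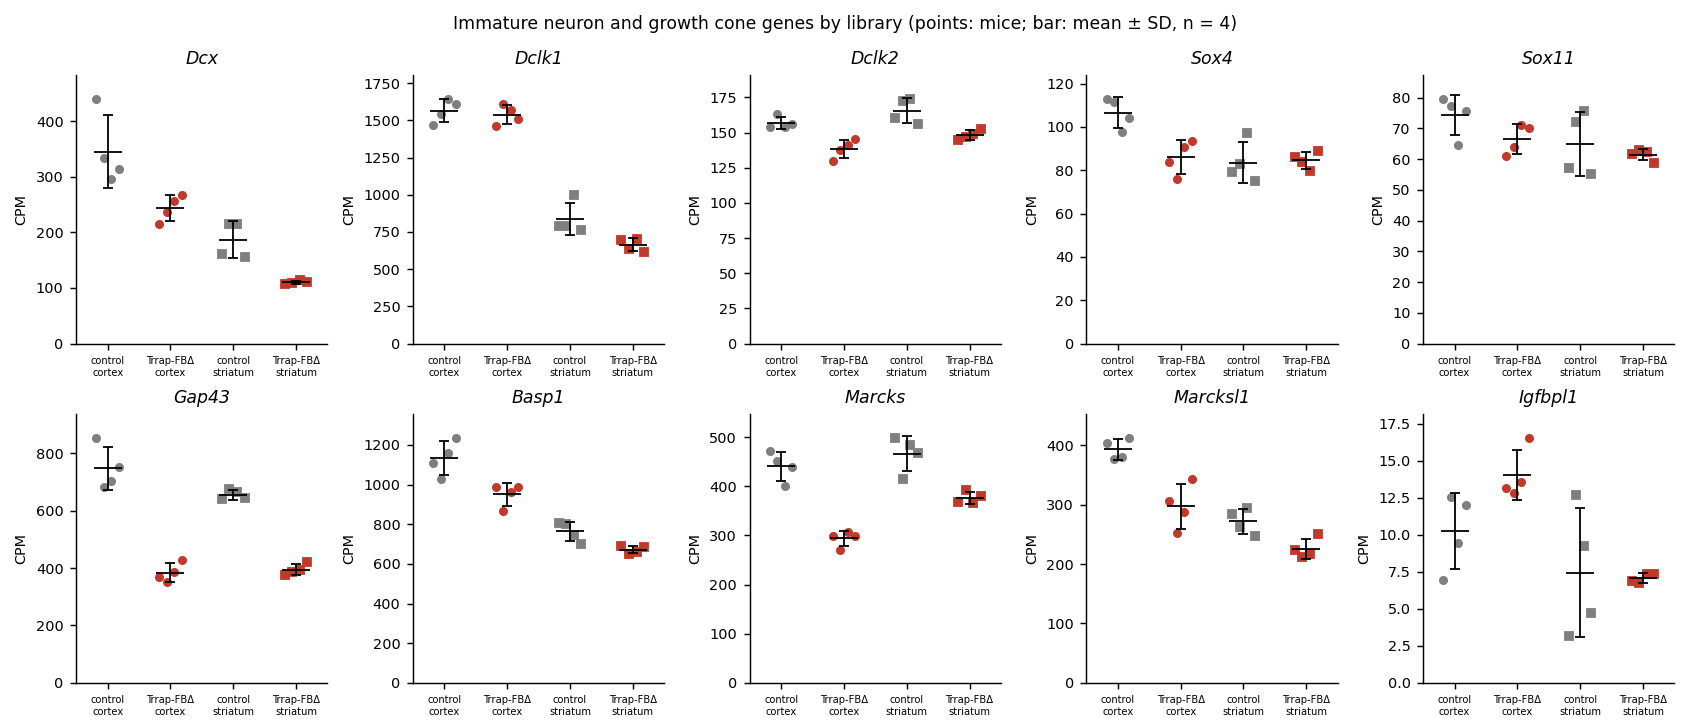
Level of each of the 10 genes in CPM (linear axis from 0) in the 16 libraries. Grey points are control and red points Trrap-FBΔ mice, circles are cortex and squares striatum, and bars give the mean ± SD of 4 mice. Gap43 separates widely by genotype in both tissues (681 to 852 against 352 to 429 CPM in the cortex), Dclk1 separates by tissue, and Sox11 overlaps between genotypes within each tissue.

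Each genotype comparison was run across all genes with edgeR's quasi-likelihood test, and a gene was called at a Benjamini-Hochberg adjusted p under 0.05. All 10 members passed the filter on low counts in both tissues. In the cortex 8 of the 10 were called, 7 lower and 1 higher, where 33.3% of 18268 genes tested were called, 17.6% lower and 15.7% higher. The median log2 fold change of the members was -0.28, and that of all genes tested was 0.001. In the striatum 7 were called lower and 0 higher, where 30.2% of 18872 genes were called, 15.8% lower and 14.4% higher, with a median of -0.23 for the members and -0.0055 for all genes. As the members were chosen with earlier results known, these shares only describe them. The libraries did not overlap for 7 members lower and 1 higher in the cortex, where 16.7% and 16% of all genes separated in these directions. In the striatum they did not overlap for 6 members, all lower, where 16% of all genes separated in this direction and 15.6% in the other. The 6 genes called lower in both tissues were Dcx, Dclk2, Gap43, Basp1, Marcks and Marcksl1. A stricter test, against a fold change of 1.2, called only Gap43 and Marcks in the cortex and only Dcx and Gap43 in the striatum.

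Dcx (ENSMUSG00000031285, chrX:143855842-143933311 of GRCm38) encodes doublecortin. It was at 439.8, 333, 295 and 313 CPM in the control cortices of mice 55, 58, 63 and 64. The Trrap-FBΔ cortices of mice 57, 59, 60 and 61 held 214, 236, 257 and 267 CPM. All 4 thus lay below all 4 controls, and mouse 55 was the highest control. The log2 fold change was -0.50 (SE 0.11, edgeR adjusted p = 0.0063), and it was -0.36 when the cortex of mouse 55 was left out, with the call kept. Control striata of mice 58, 63, 64 and 65 held 162, 216, 215 and 155 CPM of Dcx, and Trrap-FBΔ striata 108, 108, 114 and 110.2 CPM, in the same order of mice as above. The Trrap-FBΔ striata were tightly grouped and the controls fell into a higher and a lower pair. The log2 fold change was -0.77 (SE 0.11, edgeR adjusted p = 0.00076), and it stayed between -0.85 and -0.69 with each library left out in turn. The control striata with more Dcx, from mice 63 and 64, also had less oligodendrocyte RNA than those of mice 58 and 65, with 3144 and 4378 against 9331 and 6923 CPM summed over 6 myelin genes. The part of this difference between dissections in the Dcx levels was not tested.

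Dclk1 (ENSMUSG00000027797, chr3:55242364-55539068) encodes a doublecortin-like microtubule-binding protein joined to a kinase domain. It was at 1468, 1541, 1643 and 1609.9 CPM in control cortices and at 1465, 1610.4, 1569.9 and 1508 CPM in Trrap-FBΔ cortices. These groups overlapped almost completely, and the log2 fold change was -0.03 (95% interval -0.17 to 0.12, edgeR adjusted p = 0.78). In the striatum it was at 787, 792, 998 and 766 CPM in controls and at 693, 638, 705 and 617 CPM in Trrap-FBΔ mice, without overlap. The log2 fold change there was -0.33 (SE 0.091, edgeR adjusted p = 0.020). This call was lost without the Trrap-FBΔ striatum of mouse 59 (edgeR adjusted p = 0.058) or mouse 61 (0.057) and with sex as a covariate (0.078). The striatum of control mouse 64 stood above the other 3 controls. Cortical excitatory markers, summed, also differed between these striata, at 370 to 602 CPM in controls and 275 to 384 CPM in Trrap-FBΔ mice. The part of this difference in the striatal Dclk1 values was not tested.

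Dclk2 (ENSMUSG00000028078, chr3:86786151-86920852) encodes the third protein of the family, with the same pair of domains as Dclk1. Control cortices held 154, 163, 154 and 156 CPM and Trrap-FBΔ cortices 129.5, 137, 141 and 145 CPM, without overlap (log2 fold change -0.18, SE 0.046, edgeR adjusted p = 0.011). In the striatum the values were 160.3, 172, 174 and 156 CPM in controls and 145, 147, 149 and 152 CPM in Trrap-FBΔ mice. These groups also did not overlap, and the log2 fold change was -0.16 (SE 0.048, edgeR adjusted p = 0.030). The striatal call was lost without the Trrap-FBΔ striata of mice 57, 59 or 60 or the control striatum of mouse 64 (edgeR adjusted p between 0.070 and 0.088), with sex as a covariate (0.059), with upper-quartile normalization (0.062) and when low counts were not filtered (0.082).

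Sox4 (ENSMUSG00000076431, chr13:28948919-28953713) and Sox11 (ENSMUSG00000063632, chr12:27334264-27342574) are single-exon genes for closely related transcription factors that activate neuronal genes such as Tubb3 in newborn neurons. Sox4 was at 113, 112, 97.6 and 104 CPM in control cortices and at 84.0, 75.9, 90.7 and 93.5 CPM in Trrap-FBΔ cortices. The groups did not overlap, and the log2 fold change was -0.31 (SE 0.069, edgeR adjusted p = 0.0058). In the striatum the Trrap-FBΔ values of 86.0, 83.7, 79.9 and 89.1 CPM lay inside the control range of 75.1 to 97.1 CPM (log2 fold change 0.02, 95% interval -0.15 to 0.19, edgeR adjusted p = 0.87). Another gene, Gm26735, overlaps Sox4 on the opposite strand over 54.1% of the 51-base words of Sox4. The reads were counted by strand, and no gene overlapped an exon of a member on the same strand.

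Sox11 was at 79.5, 77.4, 64.7 and 75.6 CPM in control cortices and at 60.96, 63.95, 71.2 and 70.1 CPM in Trrap-FBΔ cortices. The lowest control, mouse 63, lay among the Trrap-FBΔ libraries, and the log2 fold change of -0.16 was not called (95% interval -0.31 to -0.00245, edgeR adjusted p = 0.11). Without the cortex of mouse 63 it was called lower, at -0.22 (edgeR adjusted p = 0.023). In the striatum the controls were at 56.95, 71.9, 75.5 and 55.2 CPM and enclosed the Trrap-FBΔ values of 61.6, 63.04, 62.3 and 58.8 CPM (log2 fold change -0.08, 95% interval -0.29 to 0.13, edgeR adjusted p = 0.57). As for Dcx, the control striata of mice 63 and 64 held more Sox11 than those of mice 58 and 65.

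Gap43 (ENSMUSG00000047261, chr16:42248442-42340651) encodes a growth-associated protein of axons that is made in large amounts during outgrowth and regeneration. It was at 852, 681, 701 and 753 CPM in control cortices and at 368, 352, 388 and 429 CPM in Trrap-FBΔ cortices. The lowest control exceeded the highest Trrap-FBΔ cortex by a wide margin, and the log2 fold change was -0.96 (SE 0.084, edgeR adjusted p = 2.8e-05). In the striatum the values were 639.7, 675, 664 and 643 CPM in controls and 377, 387, 393 and 421 CPM in Trrap-FBΔ mice. The log2 fold change was -0.73 (SE 0.055, edgeR adjusted p = 6.4e-05), and the call held under every alternative and with each library left out in both tissues.

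Basp1 (ENSMUSG00000045763, chr15:25363277-25413764) encodes a membrane-bound protein of nerve terminals and growth cones that resembles GAP43 in its acidic, lipid-anchored build. Control cortices held 1109, 1028, 1160.1 and 1233 CPM and Trrap-FBΔ cortices 988, 865, 961 and 989.9 CPM, without overlap. The fall was smaller than that of Gap43, with a log2 fold change of -0.25 (SE 0.073, edgeR adjusted p = 0.021), and the call was lost without the control cortex of mouse 64 (edgeR adjusted p = 0.063) or the Trrap-FBΔ cortex of mouse 59 (0.065). In the striatum Basp1 was at 805, 800.3, 747 and 702 CPM in controls and at 688, 651, 660.1 and 684 CPM in Trrap-FBΔ mice. The groups again did not overlap, but the log2 fold change of -0.19 (SE 0.061, edgeR adjusted p = 0.042) was close to the threshold. It was called in only 2 of the 8 fits with a library left out, those without the control striata of mice 63 and 65. In the other 6 fits, without the Trrap-FBΔ striata of mice 57, 59, 60 or 61 or the control striata of mice 58 or 64, the edgeR adjusted p lay between 0.069 and 0.11. The call was also lost with upper-quartile normalization (0.067) and without the filter on low counts (0.074).

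Marcks (ENSMUSG00000069662, chr10:37133375-37138920) encodes the main myristoylated substrate of protein kinase C, which releases the membrane and calmodulin when phosphorylated. It was at 471, 452, 401 and 439 CPM in control cortices and at 299.9, 270.0, 306 and 299 CPM in Trrap-FBΔ cortices. The groups were far apart, with a log2 fold change of -0.59 (SE 0.064, edgeR adjusted p = 8.7e-05). In the striatum it was at 498, 416, 484 and 467 CPM in controls and at 369, 391.9, 366 and 381 CPM in Trrap-FBΔ mice, again without overlap. The log2 fold change was -0.31 (SE 0.064, edgeR adjusted p = 0.0056).

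Marcksl1 (ENSMUSG00000047945, chr4:129513581-129515985) encodes the smaller MARCKS-like protein. It was at 405, 377, 379.6 and 412 CPM in control cortices and at 305, 253, 288 and 344 CPM in Trrap-FBΔ cortices (log2 fold change -0.40, SE 0.081, edgeR adjusted p = 0.0032). All Trrap-FBΔ cortices lay below all controls. In the striatum the values were 284, 263, 294 and 248 CPM in controls and 223, 211, 218 and 250.5 CPM in Trrap-FBΔ mice. Mouse 61 lay just above the lowest control, mouse 65, and the log2 fold change was -0.27 (SE 0.071, edgeR adjusted p = 0.017). This striatal call was lost without the Trrap-FBΔ striatum of mouse 59 (edgeR adjusted p = 0.053) or mouse 60 (0.0501) and with sex as a covariate (0.052). Of the 51-base words of Marcksl1, 1.48% also occur in other genes, among them the pseudogene Marcksl1-ps4, so a small part of its reads could not have been assigned uniquely.

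Igfbpl1 (ENSMUSG00000035551, chr4:45809468-45826923) encodes a secreted protein related to the insulin-like growth factor binding proteins and is used as a marker of neuroblasts and newborn neurons. It was the least abundant member, with between 100 and 793 counts in a library. Control cortices held 6.98, 12.6, 9.47 and 12.0 CPM and Trrap-FBΔ cortices 13.2, 12.8, 13.6 and 16.5 CPM. The groups did not overlap, although the gap between them was narrow, and the log2 fold change was 0.44 (SE 0.15, edgeR adjusted p = 0.043). This call depended on single libraries. It was lost in 6 of the 8 fits with 1 cortex left out, namely those without control mice 55 (log2 fold change 0.31) or 63 (0.40) or Trrap-FBΔ mice 57, 59, 60 or 61, with edgeR adjusted p between 0.055 and 0.12, with all 16 libraries in one fit (0.24), and with the mouse as a random block in limma-voom (adjusted p = 0.18). In the striatum the controls scattered over 3.15, 12.7, 9.23 and 4.75 CPM and the Trrap-FBΔ mice lay together at 6.86, 6.76, 7.35 and 7.39 CPM. The log2 fold change of -0.08 there had a 95% interval from -0.82 to 0.66 (edgeR adjusted p = 0.88), and it was 0.31 without control mouse 63 and 0.03 without control mouse 64.

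**Figure D2:**
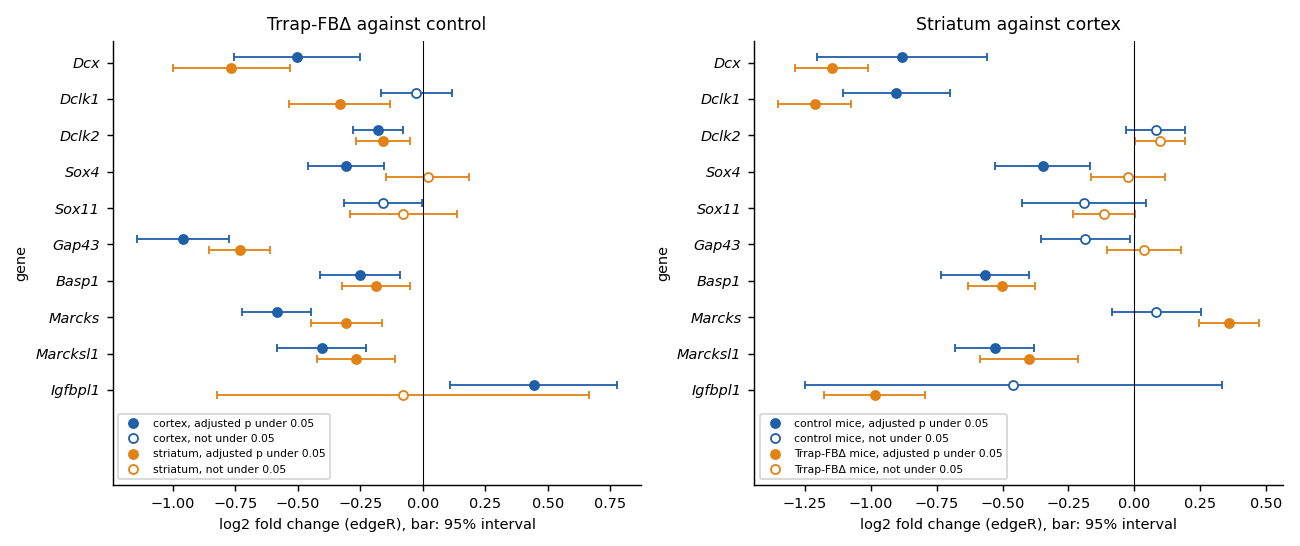
Log2 fold changes of the 10 genes with their 95% intervals from edgeR, on the left Trrap-FBΔ against control in the cortex (blue) and striatum (orange), on the right striatum against cortex in control (blue) and Trrap-FBΔ mice (orange). Filled points were called at an adjusted p under 0.05, each on 4 against 4 libraries. On the left 7 genes are filled and negative in each tissue and Igfbpl1 is filled and positive in the cortex, at 0.44. On the right Dcx and Dclk1 lie furthest below 0 within each genotype, between -1.21 and -0.88, and Igfbpl1 is at -0.99 in Trrap-FBΔ mice.

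A difference between the tissues in the response to genotype was tested as an interaction in edgeR over all 16 libraries. Of the 10 members 0 were called, and 0.437% of 19438 genes were. At an unadjusted edgeR p under 0.05 the fit held 4 members, and 2347 of all 19438 genes tested. Unadjusted edgeR p-values were 0.0063 for Marcks, 0.0081 for Sox4, 0.013 for Dclk1 and 0.040 for Gap43, and their edgeR adjusted p lay between 0.19 and 0.38. Marcks, Sox4 and Gap43 had a more negative log2 fold change in the cortex, by 0.28, 0.33 and 0.23, and Dclk1 in the striatum, with an interaction term of -0.31. DESeq2, limma-voom and both fits with the mouse as a block also called 0 members. The blocked fits called 219 genes (mouse fixed, edgeR) and 303 genes (mouse random, limma-voom) in all, against 85 without a block. A differing effect in the 2 tissues was therefore not shown for any member, and the intervals of the interaction terms were wide, from -0.63 to 0.10 for Dcx and from -0.54 to -0.07 for Dclk1.

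Related members could also be compared within each library, which removes differences in depth and scaling. Of 10 such comparisons, 5 ratios of RPKM in each tissue, 6 reached the smallest p that an exact permutation test of 4 against 4 allows, 0.029 (2-sided, adjusted p = 0.048 over the 10). The ratios were added after the counts had been seen. All 6 divide by Dcx or Gap43, which had already been seen to fall more than the gene set over them. Their p-values thus restate the fold changes above and are not separate tests. The ratio of Dclk1 to Dcx was 2.76, 3.83, 4.60 and 4.25 in control cortices and 5.65, 5.64, 5.05 and 4.67 in Trrap-FBΔ cortices. In the striatum it was 4.03, 3.03, 3.84 and 4.08 in controls and 5.33, 4.88, 5.13 and 4.63 in Trrap-FBΔ mice. In both tissues the ratio was higher in every Trrap-FBΔ library than in every control. The ratio of Dclk2 to Dcx rose likewise, from 0.557 ± 0.0934 to 0.683 ± 0.0342 in the cortex and from 1.08 ± 0.134 to 1.62 ± 0.0385 in the striatum (SD, n = 4).

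The ratio of Basp1 to Gap43 was 1.63-fold higher on average in Trrap-FBΔ than in control cortices. It was 0.987, 1.14, 1.25 and 1.24 in control cortices and 2.03, 1.87, 1.88 and 1.75 in Trrap-FBΔ cortices. In the striatum it rose from 0.884 ± 0.0555 to 1.29 ± 0.0655 (SD, n = 4, exact permutation test, p = 0.029). The remaining pairs did not pass the test in either tissue. Marcks to Marcksl1 was 0.445 ± 0.0283 in control and 0.395 ± 0.0365 in Trrap-FBΔ cortices (exact permutation test, p = 0.14) and 0.681 ± 0.0529 and 0.665 ± 0.0547 in the striata (p = 0.71). Sox4 to Sox11 was 2.49 ± 0.0968 and 2.24 ± 0.144 in the cortex (exact permutation test, p = 0.057) and 2.25 ± 0.183 and 2.39 ± 0.176 in the striatum (p = 0.34). Between the tissues of control mice the ratio of Dclk1 to Dcx was 3.86 ± 0.799 in cortex and 3.74 ± 0.484 in striatum (SD, n = 4), and that of Dclk2 to Dcx was 0.557 and 1.08. These tissue differences in the ratios were not tested.

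**Figure D3:**
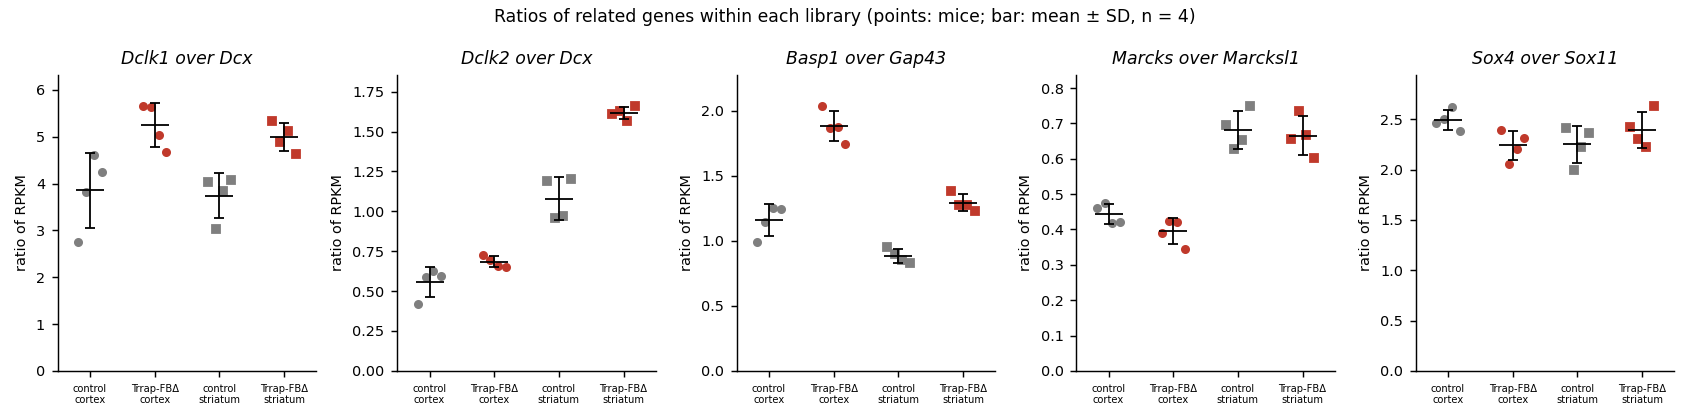
Ratio of RPKM between related genes within each library (linear axis from 0), by group. Grey points are control and red points Trrap-FBΔ mice, circles cortex and squares striatum, and bars give the mean ± SD of 4 mice. The Trrap-FBΔ points lie above all controls of the same tissue for Dclk1 over Dcx, Dclk2 over Dcx and Basp1 over Gap43, and overlap the controls for Marcks over Marcksl1.

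Between the tissues of control mice, 5 members were called lower in the striatum and 0 higher, where 40.4% of 18284 genes were called, 20.1% lower and 20.3% higher. The libraries did not overlap for 6 members, all lower in the striatum, where 19.8% of all genes separated in this direction and 18.9% in the other. Dclk1 had a log2 fold change of -0.90 (SE 0.092, edgeR adjusted p = 4.2e-05) and Dcx one of -0.88 (SE 0.15, edgeR adjusted p = 0.00080). Basp1 (-0.57), Marcksl1 (-0.53) and Sox4 (-0.35) followed, with edgeR adjusted p of 0.00022, 0.00016 and 0.0064. Gap43 was lower in every control striatum than in every control cortex, but its log2 fold change of -0.19 was not called (edgeR adjusted p = 0.076). It was called in DESeq2 (adjusted p = 0.033), with all 16 libraries in one edgeR fit (adjusted p = 0.041), without the control cortex of mouse 58 (-0.23, edgeR adjusted p = 0.045) and with the mouse as a random block in limma-voom (adjusted p = 0.029). Dclk2 (0.08), Sox11 (-0.19), Marcks (0.08) and Igfbpl1 (-0.46) overlapped between the tissues and were not called. The value of Igfbpl1 depended on single libraries and was -0.22 without the control striatum of mouse 58, -0.29 without that of mouse 65 and -0.84 without that of mouse 63, in each case without a call.

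In Trrap-FBΔ mice 5 members were called lower in the striatum and 1 higher, where 54.7% of 18872 genes were called, 27.4% in each direction. These 6 members did not overlap between the tissues, where 25.1% of all genes separated as lower and 25.4% as higher in the striatum. Dclk1 (-1.21, SE 0.063, edgeR adjusted p = 2.2e-08) and Dcx (-1.15, SE 0.064, edgeR adjusted p = 3.6e-08) again had the lowest log2 fold changes. Igfbpl1 was lower in the striatum by -0.99 (SE 0.088, edgeR adjusted p = 1.7e-06), and Basp1 (-0.50) and Marcksl1 (-0.40) were also lower. Marcks was the only member called higher in a striatum, by 0.36 (SE 0.052, edgeR adjusted p = 0.00011). Sox4 (-0.02), Gap43 (0.04), Sox11 (-0.12) and Dclk2 (0.10) were not called in the test of all 8 libraries. Dclk2 was called higher with the mouse as a random block in limma-voom (adjusted p = 0.048), with upper-quartile normalization (edgeR adjusted p = 0.0070) and without the cortex of mouse 61 (edgeR adjusted p = 0.041), and Sox11 was called lower without the cortex of mouse 57 (-0.16, edgeR adjusted p = 0.014). The main fits between tissues left out the mouse, although every Trrap-FBΔ mouse and most control mice gave both tissues. The number of members called with the mouse as a block is given at the end. Both comparisons of tissues share their libraries with the genotype comparisons above.

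The pattern of 3 members over the 16 libraries was set against that of 14981 genes outside the set, by the root mean square difference of mean-centred log2 CPM. Most like Dcx were Jpt1 and Arhgap33 (0.15 each) and C130071C03Rik (0.15), while Dcx itself varied by 0.62 on the same scale. Most like Gap43 were Gmip (0.059), Klf8 (0.077) and Pfkp (0.11), against 0.44 for Gap43 itself. Sox11 varied little, by 0.16, and its nearest genes were Polq (0.090), Ttll4 (0.097) and Lins1 (0.10). The 16 libraries share depth, dissection and genotype, so this likeness is only a description.

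Among 11 relatives of the members, 7 were called lower and 2 higher in the cortex. There 17.6% of all genes tested were lower and 15.7% higher, and in the striatum 15.8% and 14.4%. The striatal test called 5 lower and 2 higher, and the median log2 fold changes were -0.35 in cortex and -0.23 in striatum. The third SoxC gene, Sox12, was lower in the cortex (-0.41, edgeR adjusted p = 0.0021) and not called in the striatum (-0.22, edgeR adjusted p = 0.057), as was the remaining doublecortin-like kinase Dclk3 (-0.31, edgeR adjusted p = 0.014, and -0.35, edgeR adjusted p = 0.19). Dcdc2a, which carries doublecortin domains and is associated with cilia, was higher in both tissues (0.26 and 0.36). Nrgn and Pcp4, calmodulin-binding proteins that share the IQ motif with GAP43, were both lower, Nrgn by -0.35 in cortex and -1.06 in striatum, and Pcp4 by -0.42 and -0.46. Nrgn is a protein of mature dendrites. Of the 6 insulin-like growth factor binding proteins, the carriers to which Igfbpl1 is related, Igfbp2 was lower in both tissues (-0.48 and -0.23), Igfbp5 (-0.48) and Igfbp7 (-0.50) were lower in the cortex, and Igfbp4 (-0.46) was lower in the striatum. Igfbp3 was higher in the cortex (0.28, edgeR adjusted p = 0.021) and lower in the striatum (-0.22, edgeR adjusted p = 0.040), and Igfbp6 was higher in the striatum (0.41).

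Of 26 other genes of immature neurons, 15 were called lower in the cortex, with 0 higher, while in the striatum 16 were lower and 2 higher. The shares over all genes tested were 17.6% lower and 15.7% higher in the cortex. In the striatum they were 15.8% and 14.4%. This list, like the members, was chosen with earlier results of these data known, so its counts and medians only describe it. The median log2 fold change of this list was -0.46 (cortex) and -0.56 (striatum), lower than the members' medians in both tissues. Dpysl3, a collapsin response mediator that bundles cytoskeletal filaments in growth cones, fell by 1.54 (SE 0.19, edgeR adjusted p = 0.00016) in the cortex and by 1.23 (SE 0.078, edgeR adjusted p = 3.8e-05) in the striatum on the log2 scale. Cd24a, a surface protein of young neurons, fell by 1.43 in the cortex, from 167 ± 34.6 to 62.1 ± 6.40 CPM (SD, n = 4). In the striatum Neurod6, a transcription factor of young and mature excitatory neurons that is also one of the cortical excitatory markers below, was lower by -1.14 with overlapping groups, and the transcription factor gene Nhlh2 was higher by 0.49.

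Of 20 other growth cone proteins, 10 were lower and 1 higher in cortex, and 8 were lower with 0 higher in striatum, with a median of -0.19 in each. The largest falls among called genes of this list were Vasp (-0.52) and Shtn1 (-0.47) in the cortex and Shtn1 (-0.47) and Gpm6a (-0.44) in the striatum, and Fmn2 was higher in the cortex by 0.13. Of 24 kinases, phosphatases and partners of DCX, GAP43 and MARCKS, 4 were lower and 2 higher in cortex, and 9 were lower and 1 higher in striatum, with a median of -0.11 in each. The cortical counts of these kinases, phosphatases and partners lay near or below the 17.6% lower and 15.7% higher over all genes tested. In the striatum 15.8% of all genes tested were lower and 14.4% higher. Map1b, another microtubule-associated protein of growing axons, was lower in the cortex by -0.60. The calmodulin gene Calm3 was lower in both tissues (-0.49 and -0.51), and Ap1m1, a subunit of the AP-1 adaptor, which binds doublecortin, was higher in both (0.23 and 0.29). Ppp1r9b, which encodes spinophilin, was higher in the cortex by 0.25.

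Genes of mature neurons gave a set from the other end of development. Of 22, 7 were lower in cortex and 8 in striatum, 0 were higher in either, and the medians were -0.06 and -0.19. Over all genes tested 17.6% were lower in cortex and 15.8% in striatum. The neurofilament genes Nefh (-1.33) and Nefm (-1.06) led in the cortex, and the kinase gene Camk2a (-0.56) and the glutamate receptor gene Grin2b (-0.48) in the striatum. The striatal Camk2a groups overlapped, at 706 to 1200 CPM in controls and 480 to 757 CPM in Trrap-FBΔ mice. Camk2a and Grin2b were both lower in every control striatum than in every control cortex. The part of cortical tissue in their striatal falls was not tested.

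**Figure D4:**
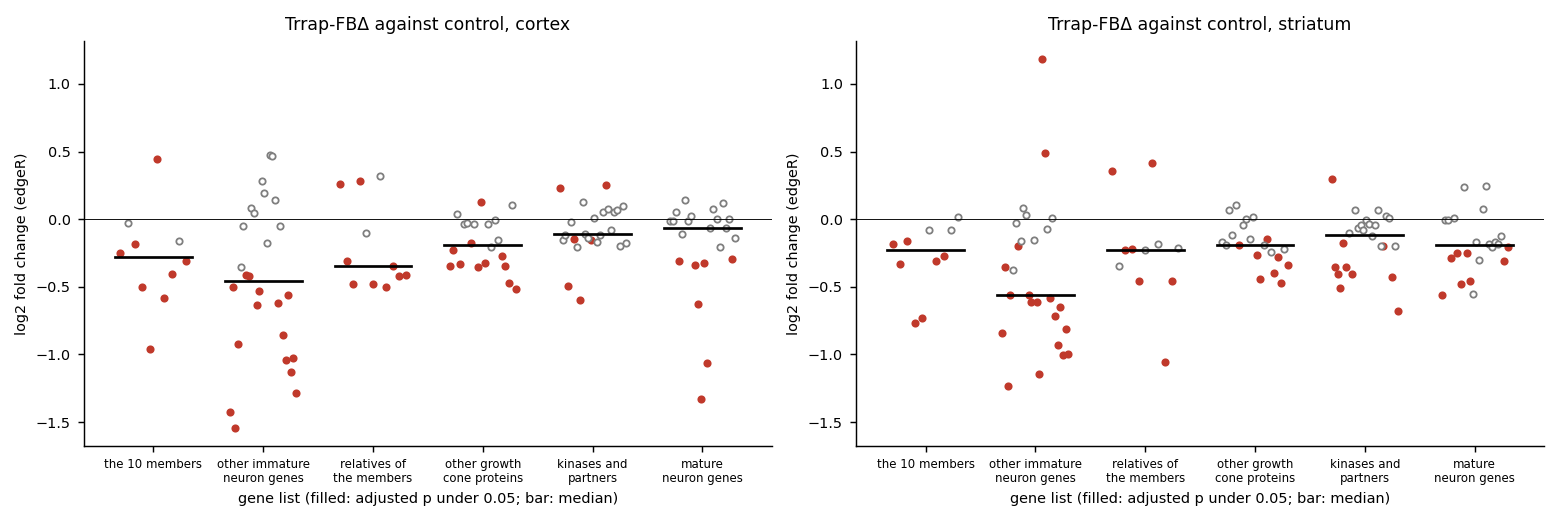
Log2 fold change (edgeR, Trrap-FBΔ against control) of each gene in the members and in 5 related lists, in the cortex (left) and striatum (right). Each point is a gene from a comparison of 4 against 4 libraries, filled where the adjusted p was under 0.05, and the bar is the list's median. The medians run from -0.46 (other immature neuron genes) to -0.06 (mature neuron genes) in the cortex and from -0.56 to -0.11 in the striatum.

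Markers of other cells also moved with the genotype, and their part in the members' values was not tested. For these and the neuronal markers below, the shares over all genes tested were 17.6% lower and 15.7% higher in the cortex. In the striatum they were 15.8% lower and 14.4% higher. None of the list genes was at 0 in any library. In the cortex all 6 oligodendrocyte markers were lower (summed levels of 1762 to 3120 CPM in controls and 1293 to 1999 in Trrap-FBΔ mice), as were all 6 markers of their precursors (572 to 661 against 458 to 521 CPM), all 7 of microglia (369 to 415 against 268 to 337 CPM) and all 8 of endothelial and mural cells (409 to 490 against 316 to 375 CPM). Of 10 genes of neural progenitors and dividing cells, 7 were lower in the cortex (157 to 185 against 113 to 132 CPM). Astrocyte markers were split, with 2 of 8 lower and 2 higher in cortex, and 1 lower and 2 higher in striatum. In the striatum 5 of 7 microglial, 3 of 8 endothelial and mural, 3 of 6 precursor, 0 of 6 oligodendrocyte and 5 of 10 progenitor markers were lower.

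Neuronal markers moved differently in the tissues. Of 8 markers of cortical excitatory neurons, which are the cells the Cre driver is meant to reach, 1 was lower in the cortex (1545 to 1918 CPM in controls and 1678 to 1809 in Trrap-FBΔ mice) and 4 in the striatum, where they summed to 370.0 to 602 CPM in controls and 275 to 384 CPM in Trrap-FBΔ mice. Of the 5 members lower in control striatum than in control cortex, Dcx, Dclk1, Basp1 and Marcksl1 were lower in Trrap-FBΔ striata and Sox4 was not. The part of cortical tissue in the striatal dissections in these values was not tested. Of 9 genes of subventricular and interneuron-lineage neuroblasts, young cells that also express Dcx, Sox4, Sox11 and Igfbpl1, 0 were called in the cortex (424 to 599 against 423 to 565 CPM) and 1 was higher in the striatum (672 to 904 against 858 to 1023 CPM). Among the 9 striatal projection neuron markers 0 were called in either genotype comparison, and neither were any of 6 choroid plexus and ependymal or 5 blood markers.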

How the data were processed

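RNA-seq was analysed from cortices and striata of 10-day-old mice, 4 of each genotype per tissue. Following the labels and the methods, the authors prepared stranded mRNA libraries, and per the submitters' processing notes they used bcl2fastq 1.8.4, STAR 2.5.4b and featureCounts 1.5.0 on GRCm38. The values the authors deposited are raw counts of uniquely mapped reads per Ensembl gene, by strand and without normalization. Genes came from GENCODE and promoters from RefSeq. The table's 53706 identifiers with a symbol included all 10 members.

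Counts were tested in R 4.3.3 with edgeR 4.0.16 (filterByExpr, TMM within each comparison, glmQLFTest, Benjamini-Hochberg adjustment over all genes tested, call at an adjusted p under 0.05). CPM used TMM factors over all 16 libraries, and RPKM divided CPM by the union of a gene's exons in kb. Replicates are separate mice. DESeq2 1.42.0, limma-voom 3.58.1 and other alternatives were run one at a time. Steps were tested on simulated data. The likeness between genes used a pseudocount of 0.5 CPM. Ratios were added after the counts had been seen and compared by exact permutation tests.

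The members and lists were chosen with earlier results of these data known. All members and Trrap are named, and of each list the 2 largest rises and 2 largest falls among called genes with a mean of at least 50 counts. A gene that this rule names is not reported here. Relatives of the members may all be named, and the 3 most alike genes are given for Dcx, Sox11 and Gap43. Lists cover the relatives, other immature neuron genes, other growth cone proteins, kinases, phosphatases and partners, mature neuron genes, and markers of cortical excitatory neurons, striatal projection neurons, neuroblasts, progenitors, oligodendrocytes and their precursors, astrocytes, microglia, endothelial and mural cells, choroid plexus and blood.

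Libraries with the same mouse number in the sample titles were taken as of one animal, which the labels do not state in words. Deviations of such libraries from the mean of their group correlated over 14438 genes with r from 0.028 to 0.339 in 7 pairs (median 0.300, 5 over 0.1). In 25 pairs of different mice of one genotype r ran from -0.33 to 0.204 (median -0.044, 4 over 0.1). No 2 libraries were alike within sampling noise (chi-square per degree of freedom from 8.26 to 44.6 in 24 pairs). Libraries held at least 28743866 counts.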

Additional observations from a re-analysis of the deposited data

Results flagged for a closer look

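Dclk1 in the striatum of control mouse 64 stood at 998 CPM, apart from the other 3 control striata, of which the next highest was at 792 CPM. Its gap to that library was 0.89 of the group's whole range, above the 95% critical value of Dixon's test for a group of 4. It was 1 of 40 groups of 4 libraries examined in this way, and chance marks about 1 in 20. Without this library the striatal fall of Dclk1 remained called, with a log2 fold change of -0.24.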

How the results depend on the processing

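The genotype calls of Gap43 kept their direction and side of the threshold in both tissues under every alternative, as did those of Marcks in the cortex and Dcx in the striatum. Those of Dcx, Dclk2, Sox4 and Marcksl1 in the cortex and Marcks in the striatum were lost only in the test against a fold change of 1.2, and no call between tissues was lost under the alternatives run. Tested against a fold change of 1.2, the number of members called went from 8 to 2 in the cortex and from 7 to 2 in the striatum, as small changes then do not count. All genes called went from 6090 to 1381 and from 5704 to 1364. With sex as a covariate 4 striatal members were called, Dcx, Gap43, Basp1 and Marcks. Leaving out 1 library gave 6 to 8 cortical calls and 3 to 7 striatal ones, with 3 without Trrap-FBΔ mouse 59 and 4 without mouse 60. With upper-quartile normalization or without the filter on low counts 5 striatal members were called. Genes called for the interaction numbered 85, and 195 without the filter, 429 in DESeq2, 219 with the mouse as a fixed and 303 as a random block, and 18 to 151 with 1 library left out. The causes of these shifts were not tested.

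With the mouse as a replicate block, fixed in edgeR, 5 members were called between control tissues, 6 between Trrap-FBΔ tissues and 0 for the interaction, as without it. As a random block, 7 were called in each genotype comparison, 6 and 7 between the tissues and 0 for the interaction. The block changed no member's call beyond those given for Igfbpl1, Gap43 and Dclk2.

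Log2 fold changes near 0, none of them called, changed sign. In the striatal genotype comparison Igfbpl1 was at 0.0995 in limma-voom and 0.12 with the random block, and Sox4 at -0.0056 with sex as a covariate. With 1 library left out Igfbpl1 ranged from -0.33 to 0.31, Sox4 from -0.031 to 0.099 and Sox11 from -0.15 to 0.00091 in the striatum, Dclk1 from -0.055 to 0.0026 in the cortex, and the interaction of Dclk2 from -0.0077 to 0.048. The interaction of Sox11 was at -0.019 with the fixed block, and Trrap between control tissues at 0.014. Between Trrap-FBΔ tissues Sox4 was at 0.045 with upper-quartile normalization and from -0.080 to 0.017 with 1 library left out, and Gap43 from -0.0047 to 0.092.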
